A study of Mus musculus with 6 samples.

Results

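The 35 genes described here encode the glucose carriers, the enzymes of glycolysis, the enzymes and carriers that handle lactate, the pyruvate dehydrogenase complex with its kinases, and enzymes of the pentose phosphate pathway. They were found by matching the Ensembl identifiers of the count tables to a fixed list of 35 symbols, and all 35 were present among 37312 gene entries. RNA was sequenced from transiently transfected 3T3-L1 cells, a mouse pre-adipocyte line derived from embryonic fibroblasts. In one experiment, cells with METTL3 knockdown (2 libraries) were set against control cells (2 libraries), and in another, cells with FTO knockdown (1 library) against control cells (1 library). METTL3 is the methyltransferase that places N6-methyladenosine on mRNA, and FTO is a demethylase that acts on RNA. The labels do not say what the control cells received, whether libraries of 1 group came from separate cultures, or for how long METTL3 or FTO had been depleted. The spread within a group may therefore be technical, and p-values measure only that spread. The METTL3 experiment was read in single-read mode and the FTO experiment in paired-end mode, so each comparison was made within 1 experiment.

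Glycolysis splits glucose into pyruvate in the cytosol and yields ATP and NADH. Pyruvate is either reduced to lactate, which regenerates NAD+, or oxidised in mitochondria by the pyruvate dehydrogenase complex, whose kinases switch it off by phosphorylation. The pentose phosphate pathway branches off after the first step and supplies ribose for nucleotides and NADPH, which fat-storing cells use to make fatty acids.

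Mettl3 stood at 7.68 and 6.55 CPM (reads scaled to a common library size) in the METTL3 knockdown libraries, against 25.1 and 28.9 CPM in their controls (edgeR adjusted p = 0.161), and Fto at 49.5 CPM in the FTO knockdown library against 154 CPM in its control. Depth was 41773967 to 44580722 counted reads in the METTL3 experiment and 28348179 to 29321128 in the FTO experiment. The fibroblast and pre-adipocyte markers, all 10 of them measured, summed to 28793 and 31879 CPM in METTL3 knockdown and 31124 and 32678 CPM in METTL3 control libraries, and to 12352 CPM in the FTO knockdown library against 16452 CPM in its control. Within that list Thy1, a surface glycoprotein of fibroblasts, was at 426 and 365 CPM in METTL3 knockdown against 249 and 162 CPM in METTL3 control libraries (log2 0.94, adjusted p = 0.296). Pdgfra, a growth factor receptor of pre-adipocytes, was at 718 and 572 CPM in METTL3 knockdown against 921 and 855 CPM in METTL3 control libraries (log2 -0.46, adjusted p = 0.361). Neither overlapped between the groups, and their part in the METTL3 results was not tested. Vim, vimentin, the most abundant of the list, had a METTL3 log2 fold change of 0.15. Col1a1, the main fibrillar collagen chain, was at 1156 CPM in the FTO knockdown library and 2104 CPM in its control. Summed markers of adipocytes (7 genes) ran from 16.1 to 46.9 CPM over the libraries, those of macrophages (5 genes) from 6.0 to 9.86, of skeletal muscle (5 genes) from 7.59 to 18.2, of neurons (4 genes) from 0.735 to 7.69, of endothelium (4 genes) from 0.762 to 1.57 and of epithelium (4 genes) from 0.172 to 0.291 CPM. Nearly all of the adipocyte sum was Fabp4, at 15.7 to 46.7 CPM. Under 10 reads in all 6 libraries were found for 5 of the 7 adipocyte markers, and for 3 each of the macrophage, muscle and neuronal markers. Tek, an endothelial receptor, was at 0.557 and 0.805 CPM in METTL3 knockdown against 0.231 and 0.261 CPM in METTL3 control libraries (log2 1.46, adjusted p = 0.317). Csf1r, a macrophage receptor, was at 4.63 and 5.95 CPM in METTL3 knockdown against 2.79 and 3.98 CPM in METTL3 control libraries (log2 0.64, adjusted p = 0.430). The most abundant markers of the other lists had METTL3 log2 fold changes of -0.40 for Fabp4 of adipocytes, 0.36 for Cd68 of macrophages, 0.32 for Des of muscle, 0.28 for Tubb3 of neurons and 0.21 for Pecam1 of endothelium, and none passed the test. Krt8 of epithelium was too low to be tested. The epithelial markers Epcam and Krt18 and the muscle markers Myod1 and Ckm had no reads in any library.

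Gapdh, glyceraldehyde phosphate dehydrogenase, is kept apart from the other enzymes because its reads cannot be assigned with certainty. The gene (ENSMUSG00000057666, protein coding, GRCm38 chr6:125161715-125166467, minus strand) has 59 near-identical copies among the measured entries, here entries that align to it over at least 300 bases at 95% identity or more. Among them, the processed pseudogenes Gm10359 and Gm12671 match its coding sequence of 1002 bases with no difference, and were listed at 0 reads in all 6 libraries. They therefore hold every one of the 902 windows of 101 bases, the length of a read, in the coding sequence. Others differ at 1 base, and the 5 of these with the most reads are described here (Gm13394 aligned over 1000 bases). Each window also occurs unchanged in at least 1 of the 5. The differences are A346C in Gm13394, G361A in Gm12070, T385A in Gm5559, T504C in Gm12033 and C583T in Gm2606, with the Gapdh base first, the position counted from 1 at the start of the coding sequence, and the base of the copy last. The sequences around them are shown because a coding read of Gapdh can differ from one of these 5 copies, over the aligned bases, only at that letter. They come from GENCODE transcripts on GRCm38, 5′ to 3′ on the strand of each gene, and capitals mark the positions that differ. Positions 336 to 395 lie at chr6:125162967-125163026 (minus) for Gapdh, chr2:28934215-28934274 (minus) for Gm13394, chr11:26786968-26787027 (plus) for Gm12070 and chr5:95862049-95862108 (plus) for Gm5559.
Gapdh: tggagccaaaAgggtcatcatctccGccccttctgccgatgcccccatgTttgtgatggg
Gm13394: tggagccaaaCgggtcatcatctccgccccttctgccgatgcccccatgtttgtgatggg
Gm12070: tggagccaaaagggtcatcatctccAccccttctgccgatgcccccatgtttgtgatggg
Gm5559: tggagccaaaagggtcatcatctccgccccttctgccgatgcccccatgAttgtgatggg
Positions 484 to 524 lie in exons at chr6:125162704-125162878 (minus, with an intron between) for Gapdh and at chr11:20335490-20335530 (minus) for Gm12033.
Gapdh: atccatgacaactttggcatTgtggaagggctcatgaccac
Gm12033: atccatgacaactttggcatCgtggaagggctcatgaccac
Positions 563 to 603 lie at chr6:125162625-125162665 (minus) for Gapdh and chr15:12575451-12575491 (plus) for Gm2606.
Gapdh: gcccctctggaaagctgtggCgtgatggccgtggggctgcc
Gm2606: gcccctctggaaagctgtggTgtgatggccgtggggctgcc

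Gapdh was higher in METTL3 knockdown than in METTL3 control libraries (log2 fold change 3.69, SE 0.12, edgeR adjusted p = 0.0042). It stood at 2071 and 2072 CPM in the METTL3 knockdown libraries, against 171 and 149 CPM in the METTL3 control libraries. Ranked by reads over all entries, it stood at 28 and 25 in METTL3 knockdown and at 1190 and 1439 in METTL3 control libraries. Whether the knockdown or the control libraries departed from the usual level of these cells was not tested. The groups lay 12.9-fold apart, and no other gene of the 35 came near that distance. The copies moved with it: Gm13394 had 12055 and 12413 reads in METTL3 knockdown libraries, against 899 and 658 reads in METTL3 control libraries. The share of the family's reads counted to the Gapdh entry was alike in the 4 libraries, at 87.0% and 87.5% in METTL3 knockdown and 87.2% and 88.6% in METTL3 control. With the reads of Gapdh and its copies summed, the log2 fold change was 3.70 (edgeR adjusted p = 0.00509), so the difference did not depend on how reads were split among the measured entries. The sum cannot cover reads left uncounted, or those of further near-identical copies, such as Gm10358 and Gm2451, that are not among the measured entries.

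In the FTO experiment the family was split differently. The Gapdh entry held 19.2% of the family's reads in the FTO knockdown library and 13.2% in the FTO control library. Gm12033, with 5 and 3 reads in METTL3 knockdown and 2 and 0 in METTL3 control libraries, had 9998 reads in the FTO knockdown and 10476 in the FTO control library, and Gm13394 had 8831 in the FTO knockdown and 8991 in the FTO control library. Gapdh alone was at 173 CPM (95% Poisson interval 168 to 178) in the FTO knockdown library and 113 CPM (109 to 117) in the FTO control library, a ratio of 1.54. Summed with its copies it was at 907 CPM in the FTO knockdown library and 850.2 CPM in the FTO control library, both scaled by the library total, so the ratio of the entry alone is not the ratio of the family. Sequencing mode differed between the experiments together with everything else about them, and their parts in the different split cannot be told apart.

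**Figure D1:**
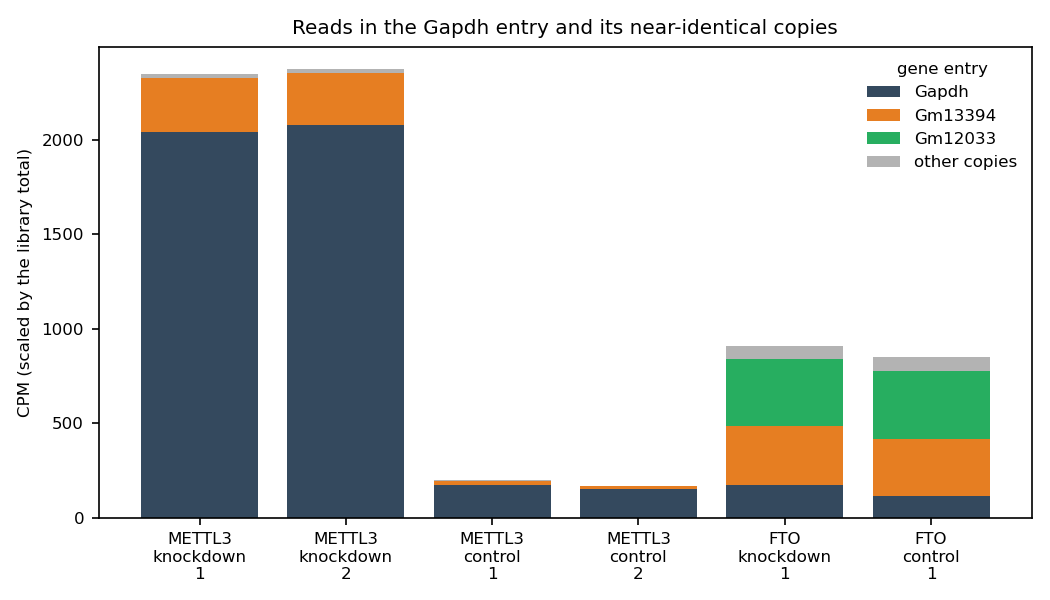
CPM scaled by the library total (vertical axis) in the Gapdh entry, Gm13394, Gm12033 and the other near-identical copies, stacked, in each of the 6 libraries. The METTL3 knockdown libraries reach 2348 and 2374 CPM against 197 and 170 in METTL3 control libraries, and in the FTO experiment most of the family's reads lie in Gm12033 and Gm13394.

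Among the other enzymes, Eno1 shares its family's reads with Eno1b and Gm4735, and the Eno1 entry held 77.3% to 80.4% of them in every library. Pgk1 held at least 96.6% of its family's reads, with Pgk1-rs7 at 0 and 0 reads in METTL3 knockdown and 0 and 1 in METTL3 control libraries, against 769 in the FTO knockdown and 518 in the FTO control library. Pgam1 held at least 97.6% of its family's reads. Pgk1-rs7 matches Pgk1 without a difference over 1255 bases, as Pgam1-ps2 does Pgam1 over 765. Of windows of 101 bases, near-identical entries share 51.61% for Pgk1, 33.86% for Pgam1, 20.33% for Eno1 and 20.79% for Gapdh transcripts. Counts of these genes are uncertain too, since how reads with several matches were counted is not known. Ldhb shares 1.26% of its family's reads, over all libraries, with Gm5514. Whether the counting used strand is not given in the sources used here. Reads in exons that overlap a gene on the other strand are therefore uncertain for Pdha1 (16.15% of exon bases, with Map3k15), G6pdx (13.57%, with Ikbkg), Gpi1 (11.48%, with the lincRNA Gm26762) and Pfkp (5.58%, with Pitrm1).

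Apart from Gapdh, the level of the glycolytic genes differed far more between steps than between conditions. On the RPKM scale (reads scaled by gene length and read total, as deposited), which allows genes of different length to be compared, Pkm, the pyruvate kinase that makes pyruvate, was the most abundant. It stood at 1150 and 1253 RPKM in METTL3 knockdown, 969 and 1012 in METTL3 control, 988 in FTO knockdown and 980 in FTO control libraries. Tpi1, triose phosphate isomerase, followed with 176 to 417 RPKM, and Aldoa, the muscle-type aldolase, with 213 to 304. These ranges overlap, as do those of Ldha, the lactate dehydrogenase subunit that favours lactate formation (171 to 271 RPKM), and Pgk1, phosphoglycerate kinase (170 to 264 RPKM). The regulatory genes were much lower: the 3 Pfkfb genes lay between 1.08 and 4.44 RPKM and the 4 Pdk genes between 1.70 and 20.8 RPKM. Slc2a3, Aldoc and Slc16a3, isozymes better known from neurons and other cell types, stayed under 0.52 RPKM in all libraries.

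**Figure D2:**
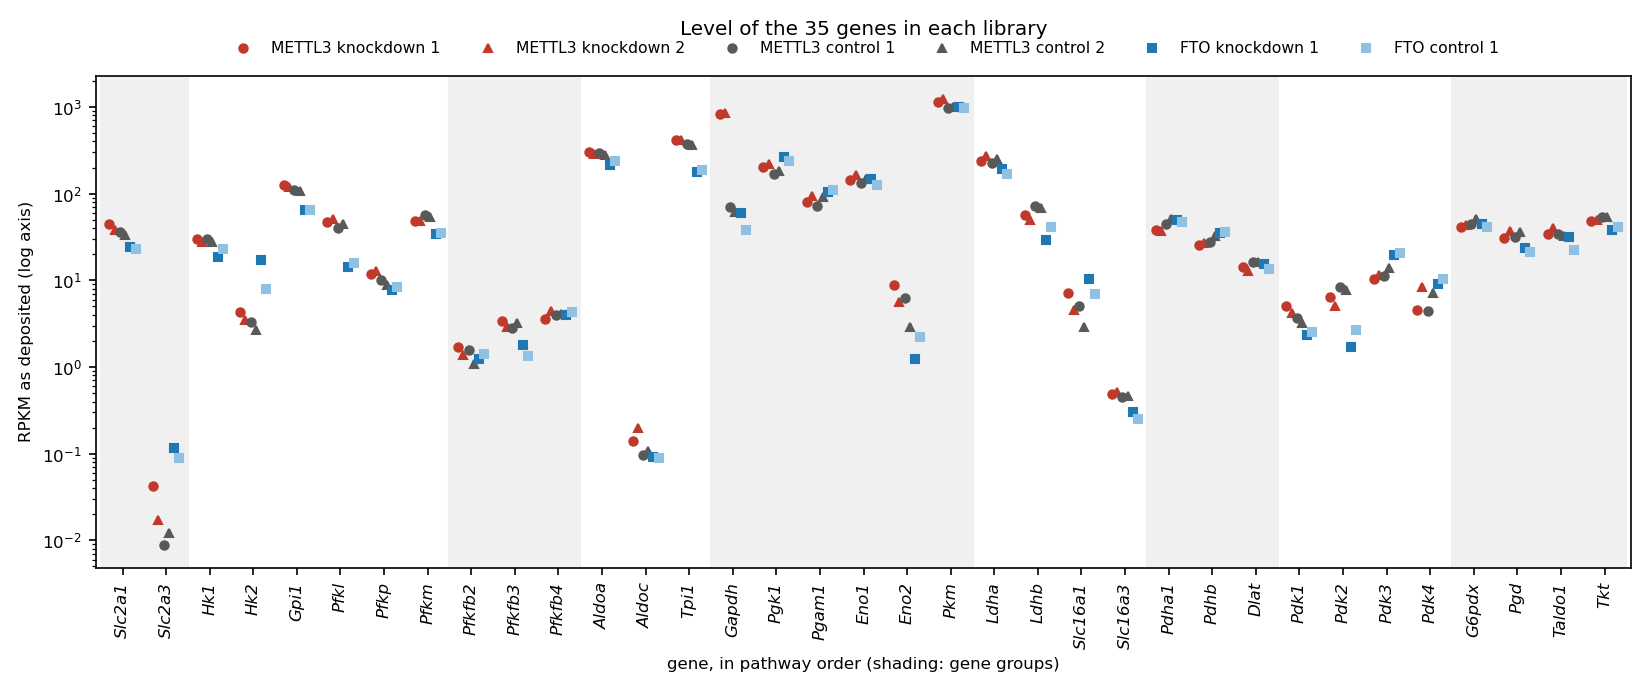
Deposited RPKM (vertical axis, log scale) of the 35 genes in pathway order, with 1 point per library; shading separates gene groups. Pkm lies highest at 969 to 1253 RPKM, Slc2a3 lowest, and Gapdh is the one gene whose METTL3 knockdown libraries stand far above its other libraries.

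In the METTL3 comparison, 34 of the 35 genes had enough reads to be tested, all but Slc2a3, which had 14 and 6 reads in METTL3 knockdown and 3 and 4 in METTL3 control libraries. By edgeR at an adjusted p under 0.05, Gapdh alone of the 34 was called, where 0.0146% of all 13697 genes tested were called. Among the other 33, none was called by edgeR, by DESeq2 or by limma, all fitted without a replicate block. At an unadjusted p under 0.05, 4 of the 33 were higher (6.35% of all genes) and 3 lower (5.10%). Their log2 fold changes were positive in 24 and negative in 9, where 6913 of all genes tested were positive and 6784 negative. The median was 0.14 where all genes had 0.00. Both METTL3 knockdown libraries lay above both controls for 12 of the 33 (21.0% of all genes) and below both for 8 (22.0%), leaving 13 that overlapped where 43.0% of all genes did not overlap. With 2 libraries per group an exact permutation test cannot give a p below 0.33, and in bulk RNA fewer cells of a kind and less RNA per cell cannot be told apart.

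Glucose uptake and the first steps were measured by 7 tested genes. Slc2a1, the basal glucose carrier GLUT1, was at 140 and 118 CPM in METTL3 knockdown and 113 and 102 CPM in METTL3 control libraries, or log2 0.26 (SE 0.12, adjusted p = 0.496). The groups did not overlap, but lay about as far apart as the 2 knockdown libraries did. Hk2, the inducible hexokinase that traps glucose by phosphorylating it, was at 28.6 and 22.6 CPM in METTL3 knockdown against 21.2 and 17.2 CPM in METTL3 control libraries (log2 0.41, SE 0.18, adjusted p = 0.46). Hk1, the housekeeping hexokinase, was at 280 and 256 CPM in METTL3 knockdown and 275 and 251 CPM in METTL3 control libraries, so that its groups overlapped. Gpi1, which isomerises the sugar phosphate for the next step, had a log2 fold change of 0.18 (SE 0.10).

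The 3 phosphofructokinase genes, whose product catalyses the committed step, did not share a direction. Pfkp, the platelet-type subunit, stood at 122 and 129 CPM in METTL3 knockdown libraries, against 102 and 90.1 CPM in METTL3 control libraries (log2 0.39, SE 0.11, adjusted p = 0.338). Pfkl, the liver type, was at 227 and 242 CPM in METTL3 knockdown against 192 and 212 CPM in METTL3 control libraries (log2 0.21). Pfkm, the muscle type, was at 159 and 156 CPM in METTL3 knockdown against 180 and 171 CPM in METTL3 control libraries (log2 -0.16). None of the 3 had overlapping groups, and none passed the test. Pfkfb2, Pfkfb3 and Pfkfb4, which make and break the sugar bisphosphate that activates phosphofructokinase, had overlapping groups and log2 fold changes of 0.22, 0.08 and 0.02.

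Further down, all tested genes from aldolase to pyruvate kinase had positive log2 fold changes, as did 6913 of all 13697 genes, but other than Gapdh none passed the test. Aldoa was at 922 and 854 CPM in METTL3 knockdown and 886 and 818 CPM in METTL3 control libraries, and its groups overlapped. Tpi1 was at 1013 and 998 CPM in METTL3 knockdown against 886 and 867 CPM in METTL3 control libraries (log2 0.20, SE 0.09, adjusted p = 0.494), and its groups stood clear of each other. Aldoc, the brain-type aldolase, rested on 21 and 31 reads in METTL3 knockdown and 15 and 16 reads in METTL3 control libraries (log2 0.73, SE 0.35).

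Pgk1, the first ATP-yielding enzyme, was at 496 and 538 CPM in METTL3 knockdown against 413 and 434 CPM in METTL3 control libraries (log2 0.29, SE 0.10, adjusted p = 0.399). Pkm was at 3296 and 3526 CPM in METTL3 knockdown against 2732 and 2820 CPM in METTL3 control libraries (log2 0.30, SE 0.10, adjusted p = 0.379). For both genes the 2 knockdown libraries lay above the controls by more than the spread within a group. Pgam1, the phosphoglycerate mutase, and Eno1, the main enolase, had overlapping groups, with log2 fold changes of 0.10 and 0.14. Eno2, the neuron-type enolase, was at 45.3 and 28.4 CPM in METTL3 knockdown and 32.2 and 14.8 CPM in METTL3 control libraries (log2 0.65, SE 0.41, adjusted p = 0.614). Its groups overlapped because the 2 libraries within each group were themselves far apart.

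Lactate handling was mixed. Ldhb, the lactate dehydrogenase subunit that favours pyruvate formation, was at 97.4 and 84.6 CPM in METTL3 knockdown against 122 and 116 CPM in METTL3 control libraries (log2 -0.39, SE 0.11, adjusted p = 0.35). Ldha was at 782 and 874 CPM in METTL3 knockdown against 732 and 801 CPM in METTL3 control libraries, with overlapping groups (log2 0.11). Ldhb therefore stood lower in both knockdown libraries without passing the test, while Ldha did not separate the groups. Slc16a1, the carrier MCT1 that moves lactate with a proton, was at 35.2 and 21.6 CPM in METTL3 knockdown and 24.0 and 13.9 CPM in METTL3 control libraries, again with overlapping groups and a wide spread within each (log2 0.58, SE 0.34). Slc16a3, the lactate exporter MCT4, had 118 and 133 reads in METTL3 knockdown and 113 and 110 in METTL3 control libraries (log2 0.16).

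The 3 subunits of pyruvate dehydrogenase measured here lay lower in both METTL3 knockdown libraries than in both controls, though none passed the test and 22.0% of all genes lay below both controls. Pdha1, the E1 alpha subunit that the kinases phosphorylate, was at 157 and 151 CPM in METTL3 knockdown against 182 and 206 CPM in METTL3 control libraries (log2 -0.33, SE 0.11, adjusted p = 0.379). Dlat, the E2 core, was at 75.8 and 68.5 CPM in METTL3 knockdown against 85.3 and 84.5 CPM in METTL3 control libraries (log2 -0.23, SE 0.10, adjusted p = 0.459). Pdhb, the E1 beta subunit, was at 41.7 and 43.7 CPM in METTL3 knockdown against 45.0 and 51.1 CPM in METTL3 control libraries (log2 -0.17, SE 0.11). The remaining subunits of the complex, Pdhx and Dld, had overlapping groups and log2 fold changes of -0.08 and -0.17.

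The 4 kinases of the complex pointed both ways. Pdk1 was at 42.9 and 35.5 CPM in METTL3 knockdown against 30.8 and 26.7 CPM in METTL3 control libraries (log2 0.45, SE 0.14, adjusted p = 0.372). Pdk2 was at 22.5 and 17.5 CPM in METTL3 knockdown against 28.9 and 26.0 CPM in METTL3 control libraries (log2 -0.46, SE 0.16, adjusted p = 0.393). The groups of Pdk1 and Pdk2 stood apart in opposite directions, and those of Pdk3 (log2 -0.18) and Pdk4 (log2 0.18), the starvation-induced kinase, overlapped. Pdk4, Eno2 and Slc16a1 also differed by over 1.5-fold between the 2 libraries of each METTL3 group, as did 5.24% of genes in METTL3 knockdown and 5.14% in METTL3 control.

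In the pentose phosphate pathway, G6pdx, the NADPH-yielding enzyme that commits glucose phosphate to the pathway, was at 139 and 144 CPM in METTL3 knockdown against 150.1 and 169 CPM in METTL3 control libraries (log2 -0.17, SE 0.10, adjusted p = 0.595). Tkt, transketolase, was at 346 and 350.4 CPM in METTL3 knockdown against 385 and 381 CPM in METTL3 control libraries (log2 -0.14, SE 0.09, adjusted p = 0.632). Both lay below their controls in both libraries. Taldo1, transaldolase, lay above them at 75.6 and 87.1 CPM in METTL3 knockdown against 74.5 and 69.8 CPM in METTL3 control libraries (log2 0.17), and Pgd, the second NADPH-yielding enzyme, overlapped at 220 and 258 CPM in METTL3 knockdown and 223 and 250.1 CPM in METTL3 control libraries.

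**Figure D3:**
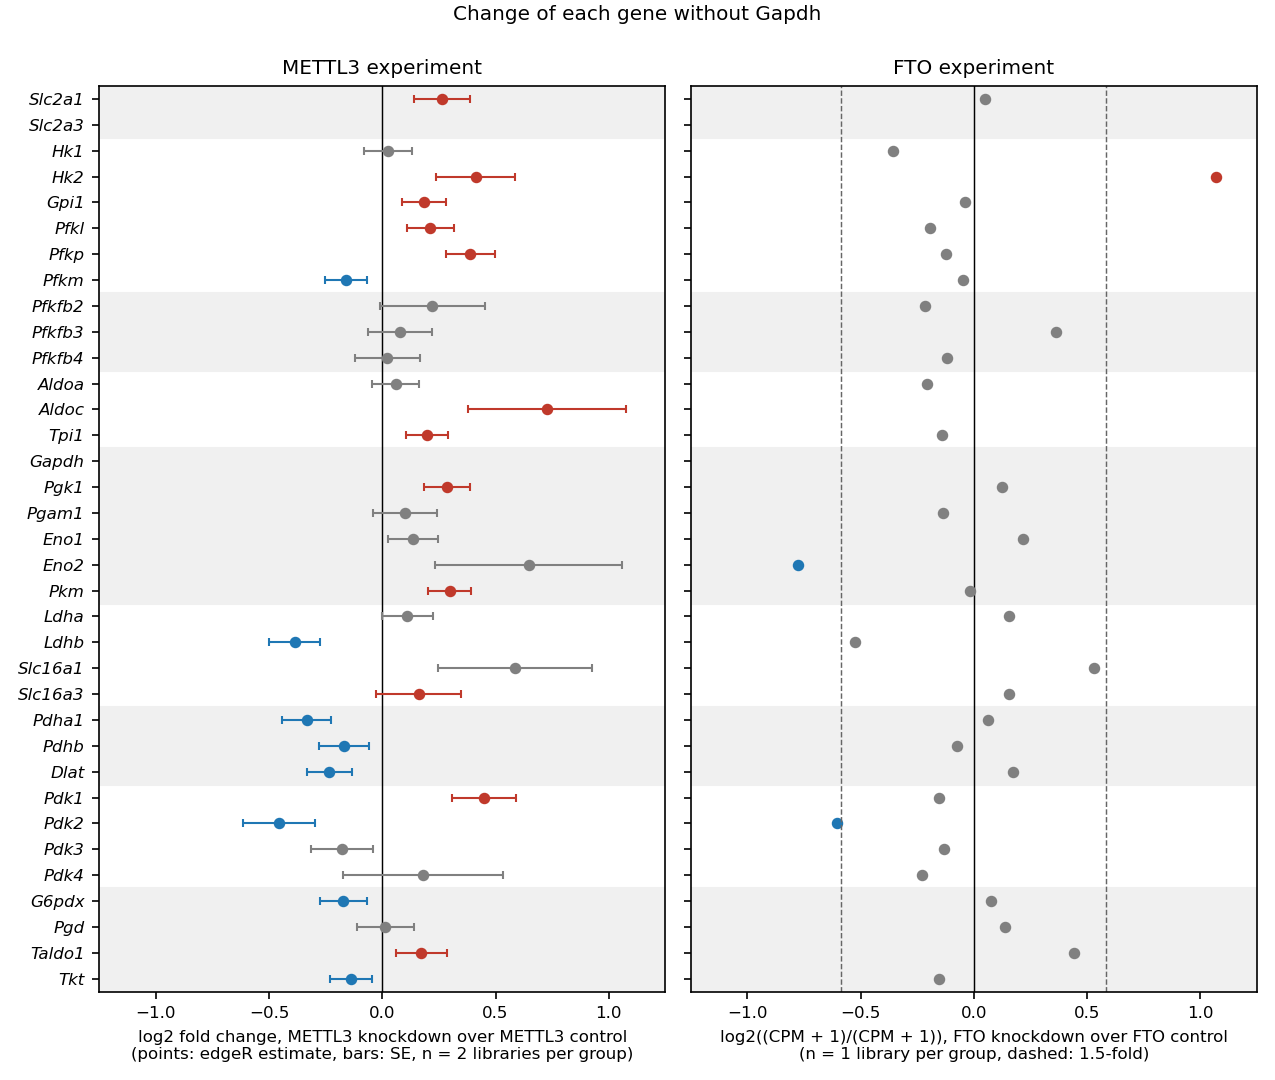
Log2 change of each gene apart from Gapdh (rows, in pathway order): left, the edgeR log2 fold change of METTL3 knockdown over METTL3 control with its SE, red or blue where the 2 knockdown libraries lie above or below both controls and grey where they overlap; right, log2((CPM + 1)/(CPM + 1)) of FTO knockdown over FTO control, coloured past 1.5-fold (dashed lines). Pdha1, Pdhb and Dlat all lie left of 0 in the METTL3 comparison, and Hk2 lies farthest right in the FTO comparison at 1.07.

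In the FTO comparison, which has 1 library per group and so no test, the change was taken as log2((CPM + 1)/(CPM + 1)), and genes reaching 50 reads in one of the libraries were counted as different past 1.5-fold. Adding 1 CPM shrinks the log2 change of low genes, ratios of CPM given here are without it, and Poisson intervals at 95% cover counting error only. Of the 33 genes with enough reads (all but Slc2a3 and Aldoc), 2 were past 1.5-fold higher, Hk2 and Gapdh, where 2.58% of 11432 genes were. Another 2, Eno2 and Pdk2, were past it lower, where 3.96% of genes were, so that 4 of 33 lay past the limit against 6.54% of all genes. Without Gapdh, 1 of 32 genes lay past the limit higher and 2 lower. With a pseudocount of 5 CPM, Eno2 and Pdk2 were no longer past it. The median log2 change without Gapdh was -0.06, against 0.00 over all genes.

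Hk2 had 3733 reads, or 131 CPM (126 to 135), in the FTO knockdown library, against 1795 reads, or 61.7 CPM (58.9 to 64.6), in the FTO control library, a ratio of 2.12. Hk1 was at 202 CPM (197 to 208) in the FTO knockdown and 259 CPM (253 to 265) in the FTO control library, a ratio of 0.781. The 2 hexokinases thus lay on opposite sides of equality, with intervals that did not overlap for either. Eno2 was at 7.52 CPM (6.55 to 8.60) in the FTO knockdown against 13.6 CPM (12.3 to 15) in the FTO control library. Pdk2 was at 6.93 CPM (6.0 to 7.96) in the FTO knockdown against 11.1 CPM (9.89 to 12.3) in the FTO control library. Both are low genes, and Eno2 differed at least as much between the 2 METTL3 control libraries, at 32.2 and 14.8 CPM.

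Inside the 1.5-fold limit, Slc16a1 was at 59.3 CPM in the FTO knockdown and 40.7 CPM in the FTO control library, a ratio of 1.45. Ldhb was at 58.4 CPM in the FTO knockdown and 84.6 CPM in the FTO control library, a ratio of 0.691. Taldo1 was at 81.0 CPM in the FTO knockdown and 59.3 CPM in the FTO control library, a ratio of 1.37. For these 3 genes the Poisson intervals did not overlap. The same held for changes as small as those of Pgk1 (ratio 1.09), Tpi1 (0.907) and Pgam1 (0.909), so at this depth it does not set the 3 genes apart. Pkm was at 3303 CPM in the FTO knockdown and 3345 CPM in the FTO control library, and the intervals overlapped. The pyruvate dehydrogenase subunits Pdha1, Pdhb and Dlat had ratios of FTO knockdown over FTO control of 1.04, 0.948 and 1.13, and did not share a direction. Col1a1, Col1a2, Pdgfra, Thy1 and Dlk1 of the fibroblast markers were past 1.5-fold lower in the FTO knockdown library, and their part in the values of these enzymes was not tested.

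The promoter letters of the 3 genes past 1.5-fold besides Gapdh are shown for reference, as the 250 bases before the start site from RefSeq on GRCm38.p6, 5′ to 3′ on the gene's strand. The letters searched were ACGTG and GCGTG, the core read by hypoxia-inducible factors, and CACGTG, the E-box read by MYC and related factors, on both strands. Capitals mark matches to ACGTG, or to its reverse CACGT, and a CACGTG holds both. Hk2 lies at chr6:82774455-82774704 (minus), Eno2 at chr6:124769674-124769923 (minus) and the upstream start of Pdk2 at chr11:95041372-95041621 (minus).
Hk2: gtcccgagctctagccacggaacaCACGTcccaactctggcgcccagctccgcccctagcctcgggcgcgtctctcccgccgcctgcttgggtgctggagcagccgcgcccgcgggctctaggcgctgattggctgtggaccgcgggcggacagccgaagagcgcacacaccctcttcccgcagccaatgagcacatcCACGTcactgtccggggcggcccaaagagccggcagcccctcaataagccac
Eno2: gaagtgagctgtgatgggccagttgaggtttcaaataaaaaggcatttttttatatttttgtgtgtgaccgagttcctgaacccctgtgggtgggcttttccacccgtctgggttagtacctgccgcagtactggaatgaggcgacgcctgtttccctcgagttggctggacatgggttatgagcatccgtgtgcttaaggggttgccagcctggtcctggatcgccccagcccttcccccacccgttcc
Pdk2: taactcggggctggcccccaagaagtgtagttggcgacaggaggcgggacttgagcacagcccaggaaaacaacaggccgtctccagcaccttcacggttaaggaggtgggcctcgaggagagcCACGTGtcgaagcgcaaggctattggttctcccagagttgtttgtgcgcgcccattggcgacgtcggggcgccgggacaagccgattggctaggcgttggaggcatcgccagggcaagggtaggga
The Hk2 window holds 2 ACGTG, that of Eno2 none and that of Pdk2 1 CACGTG. The window of the other Pdk2 start, at chr11:95040876-95041125 (minus) and not printed, holds none of the 3 motifs. Promoters were available for 34 of the 35 genes, 51 in all. In windows from 250 bases before to 50 after the start, ACGTG or GCGTG occurred in 78.43% of these 51 and in 43.77% of all 32851 promoters. CACGTG occurred in 11.76% of the 51 and 7.15% of all. Several of the 51 are overlapping windows of 1 gene. Per gene, ACGTG or GCGTG occurred in 30 of the 34 and in 46.73% of all 27025 genes, and CACGTG in 6 of the 34 and 8.09%. The 2 sets were not matched for base composition or expression, so their difference was not tested. A match is a description of these letters, not a bound site.

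Isozyme shares, the RPKM of a gene over the summed RPKM of the isozymes of its step, put the 2 experiments side by side. Only isozymes on the fixed list of symbols were summed. Hk2 made up 48.0% of hexokinase RPKM in the FTO knockdown library against 25.4% in the FTO control library, and 12.8% and 11.2% in METTL3 knockdown against 9.93% and 8.91% in METTL3 control libraries. Ldha made up 87.0% of lactate dehydrogenase in the FTO knockdown against 80.6% in the FTO control library, and 80.9% and 84.5% in METTL3 knockdown against 75.9% and 78.5% in METTL3 control libraries. In both steps every knockdown library lay above the controls of its own experiment. The same was true of the shares of Pdk1, Slc2a3 and Aldoc, the last 2 at or below 0.471%. No isozyme of the phosphofructokinase, Pfkfb, enolase or monocarboxylate carrier steps lay on one side in both experiments. Of all genes, 43.0% did not overlap between the METTL3 groups, and the FTO comparison has 1 library per group. A common side is therefore not particular to these steps. Pfkm, the largest share of phosphofructokinase on average, was at 45.4% and 43.4% in METTL3 knockdown against 52.8% and 49.99% in METTL3 control libraries, and at 61.3% in the FTO knockdown against 59.2% in the FTO control library. Among the Pdk genes Pdk3 held 39.1% to 43.5% in the METTL3 experiment and 57.1% to 59.7% in the FTO experiment, while Pdk2 held 5.24% in the FTO knockdown and 7.30% in the FTO control library, and 17.6% to 30.6% in the METTL3 experiment. Aldoa held over 99.9% of aldolase, and Eno1 held 94.2% to 99.2% of the summed RPKM of Eno1 and Eno2. Eno3, a further enolase outside the fixed list, was not in that sum. Over the libraries Eno3 stood at 23.1 to 29.4 RPKM, above Eno2 at 1.24 to 8.73 RPKM. The share of Eno1 among all enolase genes was therefore lower than the values given.

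**Figure D4:**
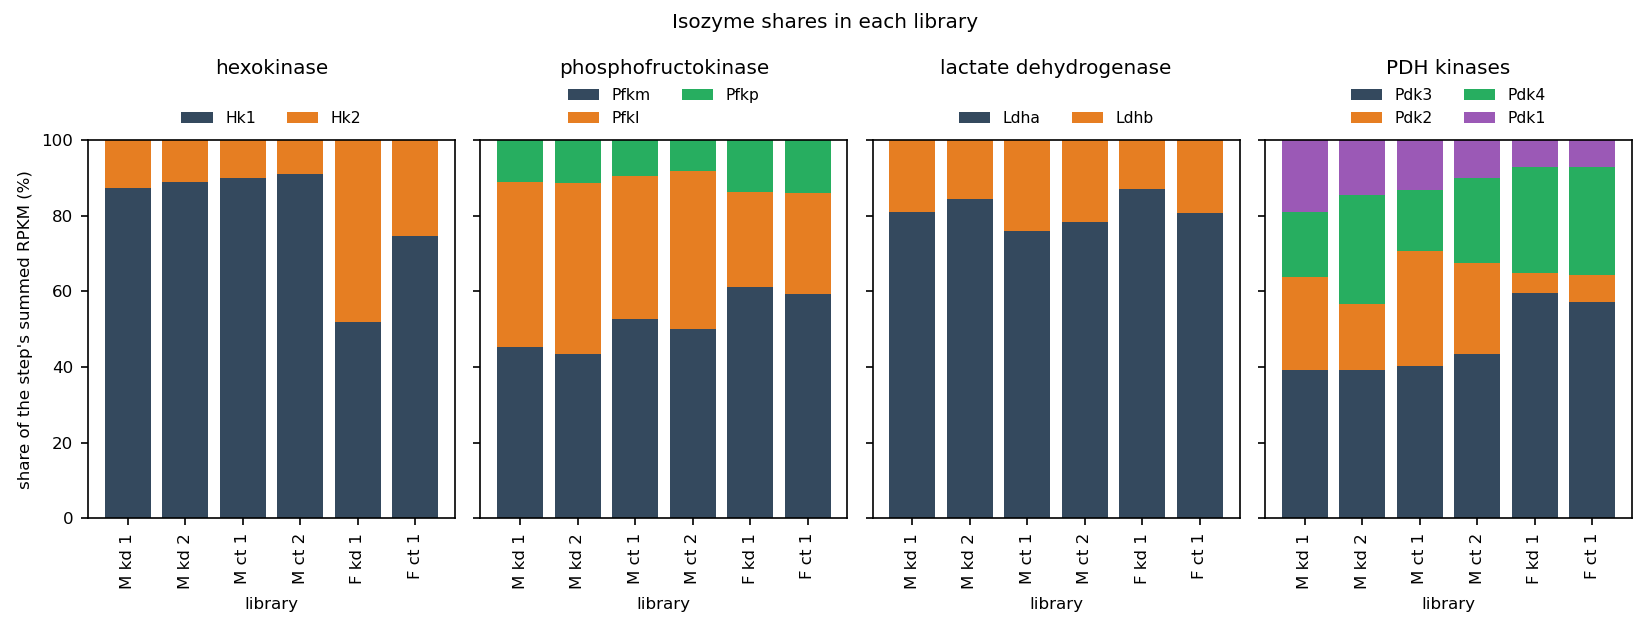
Share of the summed RPKM of a step (vertical axis, %) held by each isozyme in the 6 libraries (M and F: METTL3 and FTO experiments; kd: knockdown, ct: control), for hexokinase, phosphofructokinase, lactate dehydrogenase and the pyruvate dehydrogenase kinases. Hk2 reaches 48.0% in the FTO knockdown library and stays at or below 12.8% in the METTL3 experiment.

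Between the experiments, levels shifted for most genes of any kind. Of 33 enzymes with at least 50 reads, 6 were higher and 19 lower in both FTO-experiment libraries than in all 4 METTL3-experiment libraries, where 27.2% and 51.8% of 12298 genes were. The remaining 8 overlapped, and 79.0% of all genes did not, so the share of shifted enzymes was near that of all genes. Gapdh is among the 19 by its entry alone. Summed with its copies and scaled by the library total, it was at 907 CPM in the FTO knockdown and 850 CPM in the FTO control library. That lay between the METTL3 knockdown libraries (2348 and 2374 CPM) and the METTL3 control libraries (197 and 170 CPM). Hk2 was among the higher, with 17.0 RPKM in the FTO knockdown and 7.87 in the FTO control library against 2.69 to 4.35 RPKM in the METTL3 experiment. Pfkl was among the lower, with 14.1 RPKM in the FTO knockdown and 15.9 in the FTO control library against 40.3 to 50.8 RPKM in the METTL3 experiment. Sequencing mode, the share of mitochondrial reads (3.90% and 4.14% in the FTO experiment, 0.605% to 0.757% in the METTL3 experiment) and the experiment itself cannot be told apart here.

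The other genes of the pathway formed 7 lists with 108 genes, 88 of them tested in the METTL3 comparison. By edgeR none was called, and limma called none. At an unadjusted p under 0.05, 10 were higher by edgeR (6.35% of all genes) and 10 lower (5.10%). They were not spread evenly over the lists. Of the 10 higher, 7 were targets of hypoxia-inducible factor outside glycolysis. Of the 10 lower, 6 were in the list of regulators. DESeq2 called 3, Pck2, Epas1 and Egln1, the last named after its values were seen, among 237 calls over all genes. In the tricarboxylic acid cycle, 14 of 16 genes had negative log2 fold changes (median -0.10) and 9 lay below both controls, while none lay above. Of all 13697 genes, 6784 had negative log2 fold changes, 22.0% lay below both controls and 21.0% above. Mdh2, malate dehydrogenase, the most abundant of them, had overlapping groups. Among 17 other enzymes of the same steps the median was -0.07, among 8 other pentose phosphate enzymes 0.06 and among 13 of the glycogen and hexosamine branches -0.10. Pgls, the lactonase after G6pdx, and Pygb, a glycogen phosphorylase, the most abundant of the last 2 lists, had log2 fold changes of 0.06 and -0.10. Pfkfb1 lay lower, at 5.84 and 7.89 CPM in METTL3 knockdown against 8.71 and 12.1 CPM in METTL3 control libraries. Bsg, the partner that carries lactate transporters to the membrane, was the most abundant of the list and had a log2 fold change of 0.16. Pdp1, the phosphatase that switches pyruvate dehydrogenase back on, was at 21.7 CPM in the FTO knockdown against 35.4 CPM in the FTO control library.

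Pck2, the mitochondrial enzyme that makes phosphoenolpyruvate, was at 276 and 320 CPM in METTL3 knockdown against 194 and 184 CPM in METTL3 control libraries (log2 0.66, SE 0.11, adjusted p = 0.229). Of 16 targets of hypoxia-inducible factor outside glycolysis, 9 lay above and 5 below both controls in the METTL3 comparison (21.0% and 22.0% of all genes), with a median log2 fold change of 0.21. At an unadjusted edgeR p under 0.05, 7 of the 16 were higher and 0 lower (6.35% and 5.10% of all genes), and none was called. Vegfa, the angiogenic growth factor, was at 218 and 210 CPM in METTL3 knockdown against 163 and 140 CPM in METTL3 control libraries (log2 0.50, adjusted p = 0.284). It was at 135 CPM in the FTO knockdown against 80.4 CPM in the FTO control library. Ero1l, an oxidase of the endoplasmic reticulum, was at 102 CPM in the FTO knockdown against 63.7 CPM in the FTO control library, whereas Adm, adrenomedullin, was at 16.3 CPM in the FTO knockdown against 38.5 CPM in the FTO control library. Of 13 such targets with enough reads in the FTO comparison, 2 were past 1.5-fold higher and 1 lower (2.58% and 3.96% of all genes). In the METTL3 comparison Ero1l (log2 0.56, edgeR adjusted p = 0.310) and Adm (log2 0.49, edgeR adjusted p = 0.284) both lay above both controls. Car9, the surface carbonic anhydrase, was at 0.533 and 0.581 CPM in METTL3 knockdown against 0.208 and 0.237 CPM in METTL3 control libraries (log2 1.32, adjusted p = 0.332). Of 13 tested regulators (median log2 fold change -0.17), 2 lay above and 7 below both controls in the METTL3 comparison. At an unadjusted edgeR p under 0.05, 0 of the 13 were higher and 6 lower, and none was called. Among them Epas1, a hypoxia-inducible factor subunit, was at 18.5 and 16.4 CPM in METTL3 knockdown against 26.6 and 27.8 CPM in METTL3 control libraries (log2 -0.64, adjusted p = 0.246). Hif1a, another such subunit, lay the other way (log2 0.45, edgeR adjusted p = 0.451). Its level was 174 and 130 CPM in METTL3 knockdown against 124 and 98.6 CPM in METTL3 control libraries. Ppargc1a, a coactivator of mitochondrial genes, was at 6.88 and 3.78 CPM in METTL3 knockdown against 9.26 and 8.75 CPM in METTL3 control libraries (log2 -0.76, adjusted p = 0.434). Myc, the most abundant of the regulators, had overlapping groups, at 104 and 149 CPM in METTL3 knockdown and 84.8 and 114 CPM in METTL3 control libraries (log2 0.35), and was at 171 CPM in the FTO knockdown against 116 CPM in the FTO control library.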

How the data were processed

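The members and gene lists were chosen with earlier results of these data known. Per the labels' protocols, poly(dT)-selected RNA was read in reads of 101 bp. The read counts per Ensembl gene are raw counts as deposited by the authors, and the RPKM values were scaled by length and read total by the authors, per the file headers; how reads with several matches were counted is not given in the sources used here. The submitters' processing notes name TopHat2 2.0.9, bedtools and mm10. Symbols came from GENCODE on GRCm38. The METTL3 groups were compared with edgeR 4.0.16 in R 4.3.3 (TMM, filterByExpr, robust quasi-likelihood, two-sided, Benjamini-Hochberg over all 13697 genes tested, no replicate block). SE is the absolute log2 fold change over the square root of F. CPM are TMM-scaled within an experiment. A count of 0 allows up to 3 reads, or 0.0671 to 0.105 CPM. DESeq2 1.42.0 and limma 3.58.1 (log2(RPKM + 1)) were alternatives. Copies were found with blastn 2.17.0 on transcripts. The scripts were tested on simulated counts. All 35 members are named. Other listed genes were named where edgeR called them, where METTL3 groups did not overlap and lay past 1.5-fold, where the FTO change passed 1.5-fold, or where most abundant in their list. Eno3, Hif1a, Egln1, Pdhx, Dld and the markers without reads were named outside this rule.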

Additional observations from a re-analysis of the deposited data

How the results depend on the processing

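In the METTL3 comparison, edgeR called 2 genes, of which Gapdh was the only one of the 35. The number over all genes was 111 (83 higher, 28 lower) with no low-count filter, 237 (169 higher, 68 lower) by DESeq2 and 2 to 70 when 1 library was left out, and Gapdh remained the only member called in each of these. The label numbers shared by the METTL3 groups do not state a pairing. Same-numbered libraries deviated together from their group means (r = 0.741 over 13697 genes, which are not independent). With the number as a replicate block, 3706 genes (2016 higher, 1690 lower) and 18 members (12 higher, 6 lower) were called. Gapdh kept its call in all 13 other settings tried, including its reads summed with those of its copies, which was chosen after seeing the data for the members called. Of 414 single-member alternatives, 14 reversed sign, over 8 members, and 11 of these left out 1 library. With 1 library left out, the log2 fold change ran from -0.04 to 0.09 for Hk1, -0.04 to 0.53 for Pfkfb2, -0.06 to 0.20 for Pfkfb3, -0.13 to 0.15 for Pfkfb4, 0.00 to 0.12 for Aldoa, -0.05 to 0.26 for Pgam1, -0.31 to 0.56 for Pdk4 and -0.11 to 0.12 for Pgd. Without a change of sign, it ran from 0.19 to 1.31 for Eno2, 0.19 to 1.03 for Slc16a1, -0.65 to -0.29 for Pdk2 and -0.32 to -0.02 for Pdk3. The others were 0.00 for Pfkfb4 and -0.01 for Pgd by limma, and 0.00 for Pgd with library totals. In the FTO comparison, 373 genes and 2 members were past 1.5-fold with a pseudocount of 5 CPM, 440 genes and 2 members from RPKM, and 128 genes and 1 member past 2-fold, against 748 and 4. Shares taken from read counts without a length correction were, as means over the 6 libraries, 99.554% for Slc2a1 (99.823% by RPKM), 36.545% for Pfkm (51.989%), 34.383% for Pfkfb4 (51.128%), 89.107% for Ldha (81.226%) and 34.425% for Pdk3 (46.475%). The cause of these shifts was not tested, apart from the length correction, which the last alternative removes by construction.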
